A study of Caenorhabditis elegans with 16 samples.

Results

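The mRNA export factor genes aly-1, aly-2, aly-3, nxf-1, nxf-2 and hel-1 were followed across all groups of the study. They are 6 of the 24654 genes of the count table, and all 6 were among the 15845 genes tested. The members were chosen by name, and the set was chosen because aly-1 was higher with the inhibitor in cdk12-as larvae. RNA came from whole first-stage (L1) larvae of Caenorhabditis elegans that hatched without food at 20 °C and stayed arrested for at least 12 h. The cdk12-as strain carries an analog-sensitive form of CDK-12, a kinase of the RNA polymerase II C-terminal domain, and the comparison strain is the N2 wild type. Each strain was sampled after 4 h with OP50 bacteria as food and the analog inhibitor 3MB-PP1 at 1 µM, after 4 h with food and DMSO, after 4 h of further starvation with DMSO, and at the start of these 4 h. This gave 8 groups of 2 libraries, 16 in all. No group received the inhibitor without food, so the inhibitor was compared in fed larvae only.

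Messenger RNA leaves the nucleus as a packaged particle. The DEAD-box helicase UAP56, encoded in C. elegans by hel-1, joins the THO complex and loads ALY adaptor proteins, encoded by aly-1, aly-2 and aly-3, onto spliced transcripts. The ALY proteins hand the particle to the export receptor NXF1, encoded by nxf-1, which crosses the nuclear pore with its small partner NXT-1. In C. elegans the nxf-1 gene is needed for bulk mRNA export, NXF-2 has been linked to the nuclear handling of tra-2 mRNA, and hel-1 is known for promoting long life through the FOXO factor DAF-16.

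The aly-1 gene (chromosome IV, 9108931 to 9109651 of ce10, plus strand) and aly-2 (IV, 9147461 to 9148470, plus strand) lie 37809 bases apart. The third adaptor gene, aly-3, lies at 12123292 to 12124577 of the same chromosome and strand. The genes nxf-1 (V, 14412606 to 14415777) and nxf-2 (V, 14416275 to 14417780) are neighbours on the minus strand with 497 bases between them. The helicase gene hel-1 (II, 8327045 to 8328819, minus strand) overlaps C26D10.3 on the opposite strand, which had 1166 counts in all libraries together against 147916 for hel-1. How reads shared by the similar aly genes, or by overlapping genes, were assigned is not given in the sources used here, so single values of these genes carry that uncertainty.

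Libraries held 18588196 to 56644943 gene counts, and rrn-2.1, a ribosomal RNA gene, made up 34.79 to 50.7% of them in replicate 1 libraries and 20.3 to 33.39% in replicate 2 libraries. Levels are CPM, counts scaled to a common library size, set by the trimmed mean of M values (TMM), which assumes that most genes do not change. Values after ± are SD of 2 libraries for CPM and standard errors (SE) for log2 fold changes. A gene was called where edgeR's quasi-likelihood test gave it an adjusted p (Benjamini-Hochberg) below 0.05. The cdk-12 transcript itself averaged 43.6 ± 2.4 CPM in fed cdk12-as larvae and 47.7 ± 7.7 CPM in fed wild-type larvae, and since the strain carries an altered protein this level does not check the labels. In these whole-larva libraries, fewer cells of a type and less RNA per cell cannot be told apart.

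Per exon length the members differed widely in level. The median level over the 16 libraries was 204 CPM per kilobase for hel-1, 95.2 for nxf-1, 70.9 for aly-3, 64 for aly-1, 27.8 for aly-2 and 1.32 for nxf-2. The nxf-2 gene had 27 to 113 counts per library, so its values rest on few reads, while each other member had at least 339 counts in every library. The plot of member levels shows each library.

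**Figure D1:**
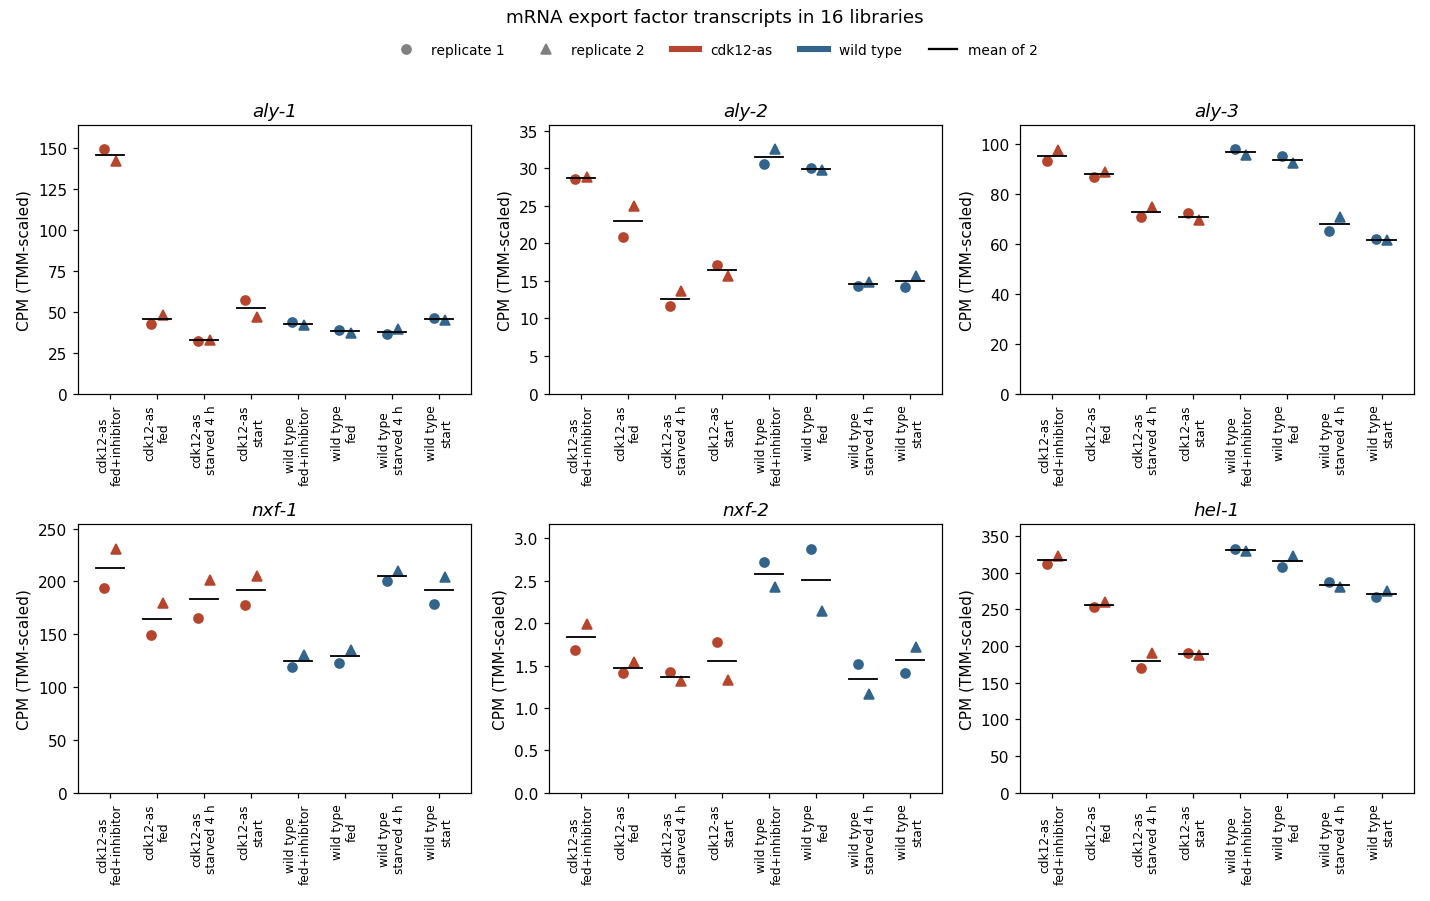
TMM-scaled CPM (vertical axes, each from 0) of the 6 genes in 8 groups of 2 libraries, with circles for replicate 1, triangles for replicate 2, lines for means, red for cdk12-as and blue for wild type. The inhibitor-treated cdk12-as libraries stand at 149 and 142 CPM for aly-1, above the 14 other libraries, and hel-1 is lower in cdk12-as than in wild type in each condition without inhibitor.

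The adaptor gene aly-1 had 149 and 142 CPM in the cdk12-as larvae fed with inhibitor, against 42.4 and 48.1 CPM in cdk12-as larvae fed without it. In wild type it had 43.7 and 41.6 CPM with inhibitor, against 39.1 and 37.2 CPM without it. The inhibitor-treated cdk12-as libraries were the highest of all 16, and the next group, cdk12-as at the start, had 57.3 and 46.7 CPM. The log2 fold change with inhibitor was 1.68 ± 0.10 in cdk12-as, the 94th highest of the 15845 genes tested, and exceeded that in wild type by 1.52 ± 0.14. This contrast chose the set, so these values are a description and no test is given. Over all genes 12.1% were called in it, 3.77% higher and 8.37% lower, and 6.94% were called in the difference between strains, 0.915% higher and 6.02% lower. Nothing is read from these shares.

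The other members were less far apart in the same contrast. In cdk12-as larvae fed with inhibitor, against those fed without it, hel-1 had 312 and 323 against 253 and 260 CPM. The nxf-1 values were 194 and 231 against 149 and 180 CPM, and the aly-2 values 28.5 and 28.8 against 20.9 and 25 CPM. The log2 fold changes were 0.31 ± 0.08 for hel-1, 0.37 ± 0.14 for nxf-1 and 0.32 ± 0.11 for aly-2. The aly-3 gene averaged 95.3 ± 3.1 against 87.8 ± 1.7 CPM and nxf-2 averaged 1.84 ± 0.22 against 1.48 ± 0.09 CPM. The log2 fold changes of these genes were 0.12 ± 0.07 for aly-3 and 0.32 ± 0.23 for nxf-2. Total count scaling lowered the values to 0.10 for hel-1, 0.17 for nxf-1, 0.10 for aly-2, 0.12 for nxf-2 and -0.09 for aly-3, and that of aly-1 to 1.46. Without cdk12-as fed replicate 1 the aly-2 value was 0.20, and without replicate 2 it was 0.46. The fold change exceeded that in wild type by 0.24 ± 0.15 for aly-2, 0.07 ± 0.10 for aly-3, 0.42 ± 0.19 for nxf-1, 0.30 ± 0.31 for nxf-2 and 0.24 ± 0.12 for hel-1. Summed markers of germline, intestine, muscle, neurons, epidermis and pharynx overlapped between these groups. The gene nxt-1, whose product is the NXF-1 partner and which is not a member, averaged 54.9 ± 1.4 CPM in cdk12-as larvae fed with inhibitor and 27 ± 2.4 CPM in those fed without it. It had the smallest adjusted p of the export partner list in this contrast and was named by that rule, so its values are a description.

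The makeup of the summed aly counts of a library can be given as shares, which need no scaling between libraries. The aly-1 gene held 55.1 and 52.9% of these counts in cdk12-as larvae fed with inhibitor, against 28.3 and 29.7% in cdk12-as larvae fed without it. In wild type it held 25.4 and 24.5% with inhibitor and 23.8 and 23.3% without it. The aly-3 gene held 34.4 and 36.4% in inhibitor-treated cdk12-as larvae, against 49.3 to 61.6% in the 14 other libraries. By counts, not corrected for length, aly-3 held the largest share in those 14 libraries and aly-1 in the inhibitor-treated cdk12-as libraries. Exons of aly-3 span 1139 bases and those of aly-1 672. Per kilobase aly-1 was above aly-3 at the start, with means of 67.8 against 54.2 CPM in wild type. In cdk12-as at the start the means were 77.4 against 62.3 CPM per kilobase. The neighbouring gene fem-3, which lies 1601 bases upstream of aly-1 on the same strand, had a log2 fold change of 0.17 with inhibitor in cdk12-as.

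**Figure D2:**
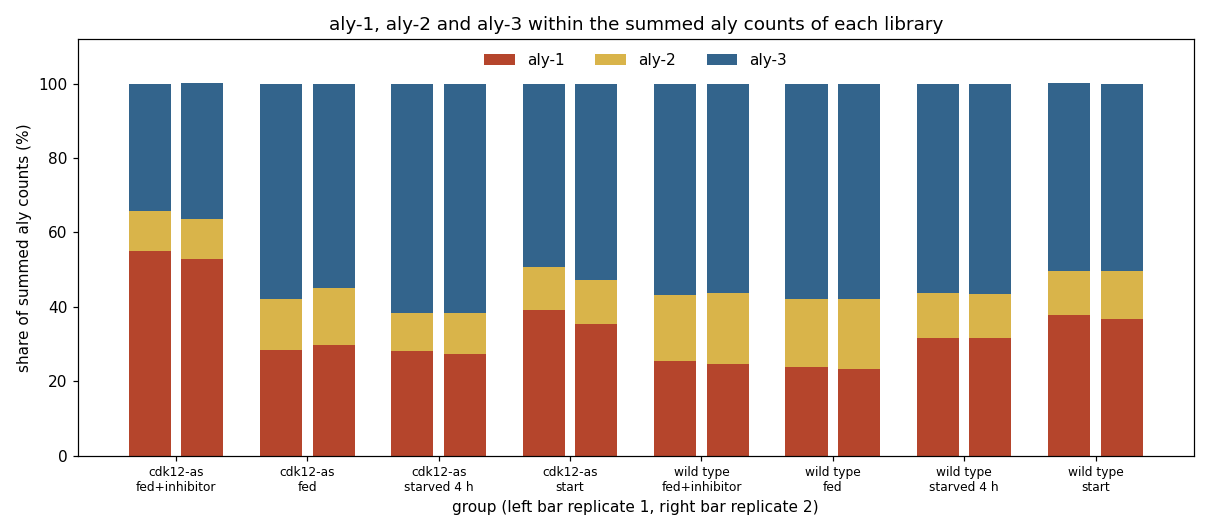
Share (%) of the summed aly-1, aly-2 and aly-3 counts held by each gene, stacked to 100, in 16 libraries ordered by group, replicate 1 left of replicate 2. The aly-1 share was 55.1 and 52.9% in cdk12-as larvae fed with inhibitor and 23.3 to 39% in the other libraries.

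Wild-type larvae fed with inhibitor were compared with wild-type larvae fed without it to see what the compound does without an analog-sensitive kinase. These libraries are not in the cdk12-as contrast that chose the set, though the members and comparisons were chosen with earlier results of these data known. None of the 6 members was called, and the background was 0% of all genes. Even so, both libraries with inhibitor stood above both without it for aly-1, aly-2, aly-3 and hel-1. The wild-type pair fed with inhibitor differed most beyond sampling noise among the groups (chi-square 421 per degree of freedom). With 2 such libraries, the lack of a call does not show that the compound has no effect. At an unadjusted p under 0.05 edgeR counted 305 of 15845 genes and 0 of the members, and DESeq2 called 3 genes and 0 members after adjustment. The log2 fold changes were 0.16 ± 0.10 for aly-1, 0.08 ± 0.10 for aly-2, 0.05 ± 0.07 for aly-3, -0.05 ± 0.14 for nxf-1, 0.02 ± 0.22 for nxf-2 and 0.07 ± 0.08 for hel-1. The aly-3 and nxf-2 values were -0.01 and -0.02 under total count scaling.

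Wild-type larvae given food for 4 h were set against those kept without it to find how the export genes respond when arrested larvae meet food. Transcripts of aly-2, aly-3 and nxf-2 rose and those of nxf-1 fell. This is 3 members called higher and 1 lower of 6, where 46% of all genes were called, 24.4% higher and 21.5% lower. The aly-2 gene had 30 and 29.8 CPM in fed larvae, against 14.3 and 14.8 CPM in starved larvae, which is 1.04 ± 0.11 on the log2 scale (adjusted p = 5.59e-06). The groups did not overlap, and fed libraries were 2.06-fold higher. The share of all genes whose libraries did not overlap was not counted in any comparison. Libraries of uncalled genes could also stand apart, as those of hel-1 did here, so non-overlap is only a description. The receptor gene nxf-1 had 123 and 135 CPM in fed larvae, against 200 and 210 CPM in starved larvae, and fell by 0.67 ± 0.14 on the log2 scale (adjusted p = 0.00137). It was lower in both fed libraries than in either starved library, and it was called in all 11 alternative analyses.

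The aly-3 gene had 95.2 and 92.4 CPM in fed wild-type larvae, against 65.3 and 70.8 CPM in starved ones (log2 fold change 0.46 ± 0.07, adjusted p = 2.00e-04). The low-abundance nxf-2 gene had 2.88 and 2.14 CPM in fed larvae, against 1.52 and 1.17 CPM in starved larvae (0.89 ± 0.23, adjusted p = 0.00683). Neighbours nxf-1 and nxf-2 thus had fold changes of opposite sign. The aly-1 gene was not called, with 39.1 and 37.2 CPM in fed larvae against 36.5 and 39.3 CPM in starved larvae. Its log2 fold change of 0.01 ± 0.10 (adjusted p = 0.95) turned to -0.36 under total count scaling. The hel-1 gene had 308 and 323 CPM in fed larvae against 287 and 281 CPM in starved larvae (0.15 ± 0.08, adjusted p = 0.15, and -0.21 under total count scaling).

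Scaling set part of these calls. With total count scaling, which includes rrn-2.1, the median over all genes was -0.38, and the calls of aly-2 (0.67, adjusted p = 0.069), aly-3 (0.09, adjusted p = 0.813) and nxf-2 (0.52, adjusted p = 0.212) were lost. Scaling to totals that leave rrn-2.1 out put it at -0.26 and ended the calls of aly-3 (0.21, adjusted p = 0.0541) and nxf-2 (0.65, adjusted p = 0.0511). The nxf-2 call also needed wild-type fed replicate 1 (0.65, adjusted p = 0.0999 without it) and starved replicate 2 (0.74, adjusted p = 0.0581 without it). Summed intestine markers (8 of 10 measured) stood at 2910 to 3920 CPM in fed wild-type larvae and 1310 to 1420 CPM in starved ones. Summed muscle markers (7 of 10) stood at 6120 to 7080 CPM in fed wild-type larvae and 11900 to 12200 CPM in starved ones. Fed and starved wild-type libraries also did not overlap in summed germline (103 to 115 against 82.5 to 83.1 CPM), neuron (1340 to 1450 against 1540 to 1560 CPM), epidermis (101 to 116 against 83.2 to 88.9 CPM) or pharynx markers (618 to 760 against 1010 to 1280 CPM). No measured marker was at 0 in all libraries. The part of these tissues in the changes of the export genes was not tested.

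In cdk12-as larvae without inhibitor, aly-1, aly-2, aly-3 and hel-1 were called higher with food, though not under total count scaling. This is 4 members of 6 called higher, where 27.7% of all genes were called, 15.6% higher and 12.1% lower. The 4 include aly-1, whose fed libraries also served in the contrast that chose the set. The hel-1 gene had 253 and 260 CPM in fed cdk12-as larvae, against 170 and 190 CPM in starved ones, or 0.51 ± 0.08 on the log2 scale (adjusted p = 5.21e-04). The aly-2 gene had 20.9 and 25 CPM in fed larvae, against 11.7 and 13.6 CPM in starved larvae (0.86 ± 0.11, adjusted p = 8.03e-05). For both genes each fed library was above each starved library, a separation that was not counted over all genes.

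The aly-1 gene had 42.4 and 48.1 CPM in fed cdk12-as larvae, against 32.3 and 33 CPM in starved ones (log2 fold change 0.47 ± 0.10, adjusted p = 0.00365). The fed libraries here also served in the contrast that chose the set, so this value is not independent of that choice. The aly-3 gene had 86.7 and 89 CPM in fed larvae against 70.7 and 74.9 CPM in starved larvae (0.27 ± 0.07, adjusted p = 0.0146), a call that held in 5 of 11 alternative analyses. Its adjusted p was 0.122 without starved replicate 1, and 0.0595 or 0.0843 without fed replicate 1 or 2. The nxf-1 gene had 149 and 180 CPM in fed larvae against 165 and 201 CPM in starved ones, and nxf-2 had 1.41 and 1.54 against 1.42 and 1.32 CPM. Neither was called (adjusted p = 0.452 and 0.788), and their libraries overlapped. All 4 calls were lost under total count scaling, with adjusted p of 0.354 for aly-1, 0.0886 for aly-2, 0.707 for aly-3 and 0.408 for hel-1. Summed intestine markers stood at 2460 to 3420 CPM in fed cdk12-as larvae and 1540 to 2040 CPM in starved ones, and summed muscle markers at 7550 to 8090 CPM in fed and 9570 to 12800 CPM in starved larvae. Neuron markers stood at 1280 to 1370 against 1520 CPM and pharynx markers at 973 to 1060 against 1100 to 1220 CPM. The part of these tissues in the changes was not tested.

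**Figure D3:**
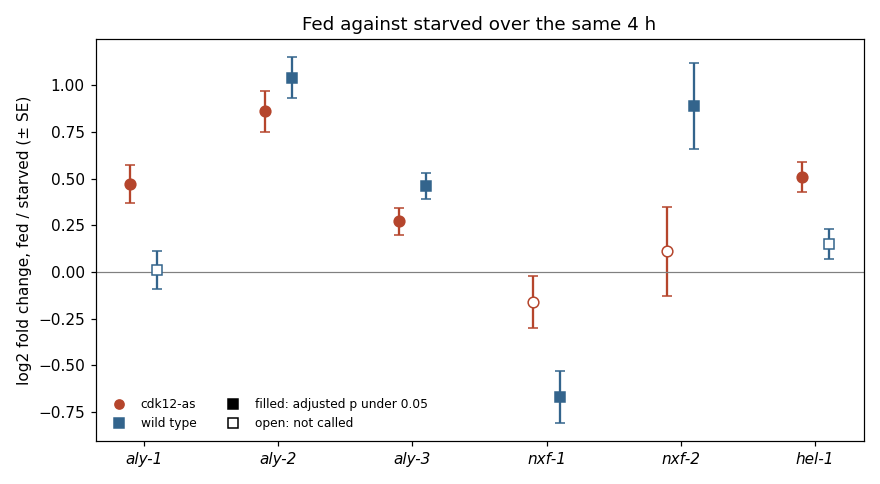
Log2 fold change of fed over starved larvae (± SE, from a fit to 2 libraries per group) for each gene, with red circles for cdk12-as without inhibitor and blue squares for wild type, and filled symbols for adjusted p under 0.05. The aly-2 and aly-3 genes were called higher in both strains. In wild type nxf-2 was called higher (0.89) and nxf-1 lower (-0.67). In cdk12-as hel-1 (0.51) and aly-1 (0.47) were called higher, though no member was called in the test of the food response between strains. Total count scaling ended each of these calls except that of nxf-1.

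The difference between the strains in the food response was tested directly, and no member was called, where 6.72% of all genes were, 3.79% higher and 2.93% lower. The difference, cdk12-as minus wild type, was 0.46 ± 0.14 for aly-1 (adjusted p = 0.0739), 0.36 ± 0.12 for hel-1 (adjusted p = 0.0887) and 0.52 ± 0.19 for nxf-1 (adjusted p = 0.139). The fed cdk12-as libraries enter this test and also chose the set, so the aly-1 values are not independent of that choice. The difference was -0.78 ± 0.33 for nxf-2 (adjusted p = 0.196), and for aly-2 and aly-3 it was -0.18 ± 0.15 and -0.19 ± 0.10, values that were 0.12 and 0.11 under total count scaling. At an unadjusted p under 0.05 edgeR counted 4 of the 6, and DESeq2 called 2 after adjustment, aly-1 (adjusted p = 0.0487) and hel-1 (adjusted p = 0.00906). Total counts without rrn-2.1 called aly-1 (adjusted p = 0.0444), nxf-1 (adjusted p = 0.0208) and hel-1 (adjusted p = 0.0141). A fit that blocks on replicate number called the same 3 genes, aly-1 (adjusted p = 0.0421), nxf-1 (adjusted p = 0.00556) and hel-1 (adjusted p = 0.029), among 1950 genes called in place of 1064.

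A further 4 h of starvation was compared with the start, both in larvae already arrested. The starved larvae spent these 4 h with DMSO, so time without food and DMSO cannot be told apart here. In cdk12-as, aly-1 fell to 32.3 and 33 CPM after starvation, against 57.3 and 46.7 CPM at the start (log2 fold change -0.67 ± 0.10, adjusted p = 0.00366). It was the single member called, where 5.82% of all genes were called, 2.74% higher and 3.08% lower. The call was lost under total count scaling (-0.78, adjusted p = 0.138) and in a fit to the compared groups alone (-0.66, adjusted p = 0.075). The aly-2 gene had 11.7 and 13.6 CPM after starvation against 17.1 and 15.7 CPM at the start (-0.37 ± 0.11, adjusted p = 0.0627). That gene was called in 3 alternative analyses, with adjusted p of 0.0263 with the replicate block, 0.0418 in DESeq2 and 0.0308 when rrn-2.1 was left out. The others were not called, with 0.04 ± 0.07 for aly-3, -0.07 ± 0.14 for nxf-1, -0.16 ± 0.24 for nxf-2 and -0.08 ± 0.08 for hel-1 (adjusted p = 0.66 to 0.839). The aly-3 value was -0.08 under total count scaling. Starved and start libraries of cdk12-as did not overlap in summed germline (68.5 to 77.8 against 91.3 to 98.6 CPM), neuron (1520 against 1210 to 1290 CPM) or epidermis markers (90.6 to 94.6 against 130 to 166 CPM), whose part was not tested. In wild type no member was called, where 6.12% of all genes were, 3.04% higher and 3.07% lower. There aly-1 had 36.5 and 39.3 CPM after starvation against 46.4 and 44.7 CPM at the start (-0.27 ± 0.10, adjusted p = 0.151). It was the single member with an unadjusted p under 0.05, and DESeq2 called none. The other values in wild type were -0.04 ± 0.11 for aly-2, 0.14 ± 0.07 for aly-3, 0.10 ± 0.14 for nxf-1, -0.20 ± 0.23 for nxf-2 and 0.07 ± 0.08 for hel-1 (adjusted p = 0.326 to 0.901), that of hel-1 being -0.01 under total count scaling. Whether the strains differ in this response was not tested.

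The strains were compared within each condition to see where the engineered strain starts from. The helicase gene hel-1 was lower in cdk12-as in all 3 conditions without inhibitor. At the start it had 191 and 188 CPM in cdk12-as, against 267 and 275 CPM in wild type (log2 fold change -0.52 ± 0.08, adjusted p = 8.73e-04). After further starvation it had 170 and 190 CPM in cdk12-as, against 287 and 281 CPM in wild type (-0.66 ± 0.08, adjusted p = 2.24e-04). After food it had 253 and 260 CPM in cdk12-as, against 308 and 323 CPM in wild type (-0.30 ± 0.08, adjusted p = 0.0171). In none of the 3 conditions did the strains' libraries overlap. How many of all genes separated in this way was not counted, and aly-1, which was not called, also separated in each. Larvae fed with inhibitor had 312 and 323 CPM in cdk12-as and 333 and 330 CPM in wild type.

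The hel-1 calls at the start and after starvation held in 10 of 11 alternative analyses each, and were lost under total count scaling (adjusted p = 0.194 and 0.101). The call after food held in 3 of 11. It was lost without wild-type fed replicate 1 or 2 (adjusted p = 0.0534 and 0.106) and without cdk12-as fed replicate 1 or 2 (adjusted p = 0.1 and 0.0693). Its fold change was -0.17 under total count scaling (adjusted p = 0.809) and -0.11 when rrn-2.1 was left out (adjusted p = 0.335). The single call at the start stands against 11.6% of all genes called lower in cdk12-as and 12.8% called higher. After starvation hel-1 was again the single member called, where 8.28% of all genes were called lower and 9.8% higher. The intestine markers were 1570 to 2110 CPM in cdk12-as and 1480 to 1680 CPM in wild type at the start, and 1540 to 2040 against 1310 to 1420 CPM after starvation. Germline markers were 91.3 to 98.6 CPM in cdk12-as and 71.7 to 79 CPM in wild type at the start, and 68.5 to 77.8 against 82.5 to 83.1 CPM after starvation. The strains also did not overlap at the start in neuron (1210 to 1290 against 1350 to 1370 CPM) and pharynx markers (1120 to 1160 against 936 to 1060 CPM), or after starvation in neuron (1520 against 1540 to 1560 CPM) and epidermis markers (90.6 to 94.6 against 83.2 to 88.9 CPM). The part of these tissues in the hel-1 values was not tested.

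The other members were not called between strains at the start, with 0.19 ± 0.10 for aly-1 (adjusted p = 0.188), 0.13 ± 0.11 for aly-2 (adjusted p = 0.388), 0.20 ± 0.07 for aly-3 (adjusted p = 0.064), 0 ± 0.14 for nxf-1 (adjusted p = 0.999) and -0.03 ± 0.23 for nxf-2 (adjusted p = 0.954). Without cdk12-as start replicate 2 the aly-1 value was 0.33 and was called (adjusted p = 0.0433). After starvation they were not called either, with -0.21 ± 0.10 for aly-1 (adjusted p = 0.17), -0.20 ± 0.11 for aly-2 (adjusted p = 0.233), 0.10 ± 0.07 for aly-3 (adjusted p = 0.399), -0.16 ± 0.14 for nxf-1 (adjusted p = 0.454) and 0.01 ± 0.24 for nxf-2 (adjusted p = 0.986). The starved aly-3 and nxf-2 values were -0.07 and -0.14 under total count scaling.

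After food, 3 members were lower in cdk12-as than in wild type, hel-1, aly-2 and nxf-2, where 16.2% of all genes were called lower and 12.7% higher. The aly-2 gene had 20.9 and 25 CPM in cdk12-as, against 30 and 29.8 CPM in wild type (-0.38 ± 0.11, adjusted p = 0.0176). The nxf-2 gene had 1.41 and 1.54 CPM in cdk12-as, against 2.88 and 2.14 CPM in wild type (-0.77 ± 0.23, adjusted p = 0.0246). These calls held in 4 and 3 of 11 alternative analyses. The aly-2 value was -0.24 under total count scaling (adjusted p = 0.692) and -0.2 when rrn-2.1 was left out (adjusted p = 0.187). The aly-2 call was lost without any of the 4 libraries except cdk12-as fed replicate 2, with adjusted p of 0.0682 to 0.164. That of nxf-2 was lost without any of them except wild-type fed replicate 2, with adjusted p of 0.0904 to 0.23. The nxf-1 gene had 149 and 180 CPM in cdk12-as against 123 and 135 CPM in wild type (0.35 ± 0.14, adjusted p = 0.0721). It was called higher in 4 of 11 alternative analyses, with adjusted p of 0.0418 in DESeq2, 0.00394 when rrn-2.1 was left out, 0.044 in the compared groups alone and 0.00229 with the replicate block. The aly-1 gene, whose fed cdk12-as libraries also chose the set, had 42.4 and 48.1 CPM in cdk12-as against 39.1 and 37.2 CPM in wild type (0.25 ± 0.10, adjusted p = 0.0851), with adjusted p of 0.0194 when rrn-2.1 was left out and 0.0488 in the compared groups alone. The aly-3 value was -0.09 ± 0.07 (adjusted p = 0.372), and 0.04 under total count scaling. Summed pharynx markers (7 of 8 measured) were 973 to 1060 CPM in fed cdk12-as larvae and 618 to 760 CPM in fed wild-type larvae. Muscle markers were 7550 to 8090 CPM in fed cdk12-as larvae and 6120 to 7080 CPM in fed wild-type larvae, and the part of both was not tested.

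**Figure D4:**
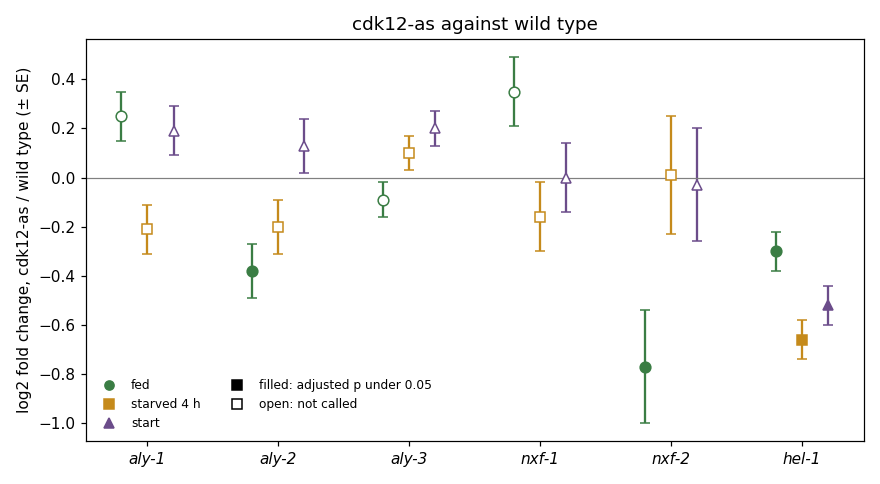
Log2 fold change of cdk12-as over wild type (± SE, from a fit to 2 libraries per group) for each gene, with circles for fed, squares for starved and triangles for start larvae, and filled symbols for adjusted p under 0.05. The hel-1 gene was called lower in cdk12-as in each condition (-0.30, -0.66 and -0.52), and aly-2 (-0.38) and nxf-2 (-0.77) were called lower in fed larvae, though neither was called in the test of the food response between strains.

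The order of the groups differed between members. For aly-1 cdk12-as larvae fed with inhibitor came first, and the ranges of wild type at start, fed cdk12-as and wild type fed with inhibitor overlapped one after the other. For aly-2 the 4 fed groups came first, with wild type fed with inhibitor at 31.6 ± 1.3 CPM and cdk12-as fed without it at 22.9 ± 2.9 CPM, and starved cdk12-as came last at 12.7 ± 1.3 CPM. For aly-3 the 4 fed groups also came first, and wild type fed with inhibitor, cdk12-as fed with inhibitor and fed wild type overlapped one after the other. For nxf-1 the fed wild-type groups came last, at 129 ± 8.3 CPM without and 124 ± 7.2 CPM with inhibitor, and each other group overlapped its neighbour in the order. For nxf-2 the fed wild-type groups came first, at 2.58 ± 0.21 CPM with and 2.51 ± 0.52 CPM without inhibitor. For hel-1 the order ran down to cdk12-as at the start (190 ± 2.4 CPM) and starved cdk12-as (180 ± 14 CPM), whose libraries overlapped.

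Across the 16 libraries, log2 CPM of aly-2 and aly-3 had a Pearson r of 0.92, and that of aly-1 had r of 0.41 with aly-2 and 0.37 with aly-3. Log2 CPM of nxf-1 and nxf-2 had r of -0.72. These are descriptions over 16 libraries that share groups, scaling and depth. Of the 8451 genes that averaged 5 CPM or more, those most like aly-1 over the libraries were smc-6 (r of 0.973), F40F4.7 (0.945), baf-1 (0.934), ham-1 (0.913) and rad-50 (0.902). Without the 2 cdk12-as libraries fed with inhibitor these became 0.846, 0.617, 0.612, 0.486 and 0.521 over 14 libraries. A high r does not mean a change of like size. With inhibitor in cdk12-as their log2 fold changes were 0.38, 0.63, 0.93, 0.7 and 0.79, against 1.68 for aly-1. For hel-1 the genes most alike were usp-39 (0.975), lpd-6 (0.973), snr-4 (0.973), prp-21 (0.972) and prp-19 (0.969). Without the inhibitor-treated cdk12-as libraries r was 0.966 to 0.99.

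Other genes of nuclear transport were followed in 3 lists. The export partners, with the THO complex, cap-binding and exon junction proteins, had 18 of 20 listed genes tested, the nuclear pore proteins 28 of 29, and the transport receptors with the Ran cycle 14 of 15. The gene npp-17 (rae-1 in the files) is in both the export partner and the pore list and is counted in each. With food in wild type, 15 of 18 export partners rose and 0 fell (median log2 fold change 0.41), 14 of 28 pore genes rose and 1 fell (0.23), and 11 of 14 receptor and Ran genes rose and 1 fell (0.79). Of all genes 24.4% were called higher and 21.5% lower, with a median of -0.01. The exon junction gene rnp-4 averaged 65.7 ± 2.4 CPM in fed wild-type larvae and 33.6 ± 0.5 CPM in starved ones, and the THO subunit gene thoc-7 (B0513.2 in the files) averaged 36.7 ± 1.9 and 12.1 ± 1.3 CPM. The pore gene npp-8 averaged 218 ± 0.91 CPM in fed and 113 ± 0.36 CPM in starved larvae, and the importin alpha gene ima-2 averaged 65.8 ± 3.7 and 20.2 ± 0.94 CPM. Under total count scaling the numbers that rose were 1, 0 and 2, and the pore median was -0.13, with all genes at -0.38. With total counts without rrn-2.1 they were 5, 9 and 10, with 2, 5 and 2 that fell, and the pore median was -0.02. Without wild-type fed replicate 1, 8 export partners rose.

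With food in cdk12-as, 13 of 18 export partners, 20 of 28 pore genes and 11 of 14 receptor and Ran genes rose, and 0, 0 and 1 fell (medians 0.52, 0.44 and 0.56, against -0.08 for all genes). Of all genes 15.6% were called higher and 12.1% lower. The exon junction gene mag-1 averaged 75.4 ± 4.5 CPM in fed cdk12-as larvae and 40.3 ± 4.2 CPM in starved ones, and the pore gene npp-13 averaged 109 ± 0.94 and 61.6 ± 4.5 CPM. Total count scaling left 0, 1 and 2 of the rises. Without cdk12-as starved replicate 1 the receptor and Ran genes had 6 rises. The food response differed between the strains for 1 gene of the 3 lists, thoc-7, by -0.85 ± 0.23 (adjusted p = 0.0439), where 6.72% of all genes were called.

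Between the strains, no gene of the export partner and pore lists was called higher in cdk12-as in any of the 3 conditions. At the start 7 export partners, 14 pore genes and 2 receptor and Ran genes were lower in cdk12-as, and 1 receptor gene, imb-2, was higher. Of all genes 11.6% were lower and 12.8% higher at the start. After starvation 8, 19 and 4 were lower, where 8.28% of all genes were lower and 9.8% higher. After food 8, 11 and 9 were lower, where 16.2% of all genes were lower and 12.7% higher. The list medians after starvation were -0.36, -0.48 and -0.22, against -0.01 for all genes. The pore gene npp-12, for a transmembrane nucleoporin, averaged 151 ± 17 CPM in starved cdk12-as larvae and 242 ± 5.8 CPM in starved wild-type larvae (-0.68 ± 0.09, adjusted p = 4.46e-04). The gene for the Ran GTPase, ran-1, averaged 122 ± 14 CPM in starved cdk12-as larvae and 186 ± 4.2 CPM in starved wild-type larvae (-0.61 ± 0.10, adjusted p = 0.00144). Total count scaling left at most 2 genes of a list lower in any condition. Totals without rrn-2.1 left 1, 2 and 3 genes lower after food and called 1 gene of each list higher.

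A fit that blocks on replicate number gave 8, 19 and 6 genes lower at the start, 9, 22 and 6 after starvation and 14, 20 and 10 after food. These strain counts also depended on single libraries. At the start, 5, 4 and 9 pore genes were lower without cdk12-as replicate 1, wild-type replicate 2 and cdk12-as replicate 2, and 4, 3 and 4 export partners. Of the receptor and Ran genes 0 to 1 were lower at the start without any 1 library. After starvation 10 pore genes and 2 receptor and Ran genes were lower without cdk12-as replicate 1. After food, leaving out any of the 4 libraries gave 2 to 5 export partners and 3 to 6 pore genes, and 4 receptor and Ran genes were lower without replicate 1 of either strain.

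In the inhibitor comparison of fed cdk12-as larvae, which chose the set, the lists are described without a test. Their median log2 fold changes were 0.25 for export partners, 0.26 for pore genes and 0.17 for receptor and Ran genes, against 0.06 for all genes. Total count scaling put the median of all genes at -0.15, and the list values under that scaling were not computed. The signs below therefore hold for TMM scaling only, and the share of all genes above 0 was not counted. As the median of all genes was itself above 0, nothing about the lists is read from these signs. Fold changes were above 0 for 13 and below 0 for 5 of 18 export partners (-0.83 to 1.02), 23 and 5 of 28 pore genes (-0.34 to 0.96) and 8 and 6 of 14 receptor and Ran genes (-0.28 to 0.79). The genes named next were picked by the smallest adjusted p of their list in this same comparison, so their separation follows in part from the pick. The pore gene npp-1 averaged 78.4 ± 3.2 CPM in cdk12-as larvae fed with inhibitor and 47.6 ± 0.65 CPM in those fed without it. The gene pabp-2, for a nuclear poly(A)-binding protein, averaged 88.2 ± 1 CPM with inhibitor and 56.1 ± 1.7 CPM without it, and ran-1 averaged 396 ± 23 and 229 ± 10 CPM. The export partner F33D11.10, with the lowest fold change of its list, averaged 26.9 ± 2.6 CPM with inhibitor and 47.8 ± 3.7 CPM without it. In wild type the list medians with inhibitor were 0.07, 0.01 and -0.01, and no listed gene was called. Further starvation gave 1 call in the 3 lists, ima-2 in wild type (0.37 ± 0.10, adjusted p = 0.0409).

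**Figure D5:**
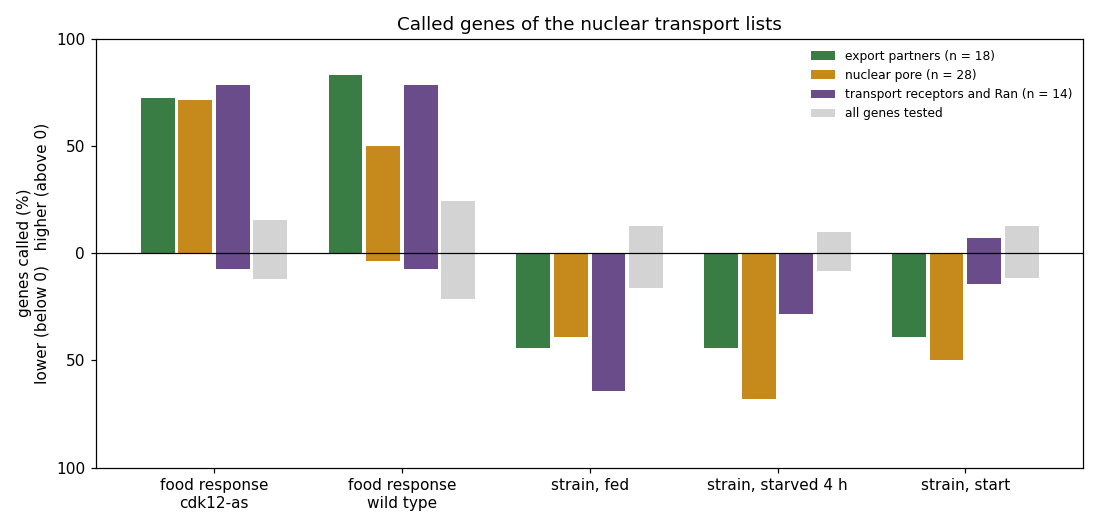
Percent of genes called higher (above 0) or lower (below 0) in the export partner (n = 18), nuclear pore (n = 28) and transport receptor and Ran (n = 14) lists and among all 15845 genes tested, in 5 comparisons. In each list more genes were called higher than lower with food, and more were called lower than higher in cdk12-as. Total count scaling left at most 2 genes of a list called higher with food or lower in cdk12-as. It put the pore median with food in wild type at -0.13, with all genes at -0.38.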

How the data were processed

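Whole-number read counts per gene were analysed as the authors deposited them. The submitters' processing notes name Trimmomatic, HISAT2, featureCounts, DESeq2, deepTools 3.2 and build ce10 without roles, and the sources used here do not say which counter or strand setting made these counts. Libraries were made from ribosomal-RNA-depleted total RNA with a stranded kit, per the labels' protocols. The 5 lines that name no gene were left out, and reads without a feature made up 23.65 to 57.06% and ambiguous reads 0.8304 to 10.7% of a column. Positions and exon lengths (other values, in bases) came from a second deposited table made with featureCounts on ce10, per the file headers. Its 32 columns of spliced-leader counts could not be tied to samples by their codes and stayed out. Older symbols in the lists were matched through a RefSeq gene table on WBcel235, of which no coordinate was used.

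The fit used edgeR 4.0.16 under R 4.3.3, with 1 model of 8 group means with TMM scaling, after filterByExpr (minimum count 10), which kept 15845 of 24654 genes. All groups share the estimate of spread, with 8 residual degrees of freedom. All p-values are two-sided and adjusted over all genes tested. SE was taken as the size of the log2 fold change over the root of its F value. The labels' protocols say that an arrested culture was divided among the 4 h conditions, and same-numbered libraries of a strain may share one. Nothing in the labels says that replicates are separate cultures, and p-values then reflect only how far these libraries differ, which may be technical spread. Library pairs of a group differed beyond sampling noise (chi-square 49.8 to 421 per degree of freedom). Alternatives were DESeq2 1.42.0, other scalings, no filter, the compared groups alone, a replicate term, and leaving out each library in turn. Where a group is left with 1 library, that library is assumed to vary like the other groups.

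The members, gene lists and comparisons were chosen with earlier results of these data known. All 6 members were named in every comparison. From the lists, up to 3 genes with the smallest adjusted p could be named per list and comparison. Genes most like a member were the 5 with the highest Pearson r of log2 CPM (prior count 2). The gene fem-3 was chosen after its values were seen.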

Additional observations from a re-analysis of the deposited data

How the results depend on the processing

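Of 54 member values with a test, 14 were called, among them aly-1 with food in cdk12-as, whose fed libraries also chose the set. Total count scaling ended 13 of these calls and added 0, total counts without rrn-2.1 ended 6 and added 6, a fit to the compared groups alone ended 5 and added 2, no low-count filter ended 3, DESeq2 ended 1 and added 4, and DESeq2 size factors ended 0. Leaving out single libraries kept 41 of 56 tests of called values, with 0 reversed. No called value changed sign under any alternative run. The cause of these changes was not tested. Depth limits nxf-2 most, at 27 to 113 counts per library.

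With the replicate number as a block, 0 calls were lost and 6 added among the members, 5 of them given with the results and the other aly-3 between strains at the start (0.20, adjusted p = 0.0367). The labels' protocols say that an arrested culture was divided among the 4 h conditions, so same-numbered libraries of a strain may share a culture, although no label ties a number to one. The share of rrn-2.1 also separated the numbers, at 34.79 to 50.7% in replicate 1 and 20.3 to 33.39% in replicate 2 libraries. Fits without the block count as spread any difference between the numbers that scaling leaves. Deviations of same-numbered libraries correlated across genes at 0.209 to 0.536 in the comparisons of 2 groups. Between the strains the values were 0.434 at the start, 0.3 after starvation and 0.291 after food, so this was not particular to libraries of 1 strain. The block gave 1950 genes called for the food response difference, and 1831 and 1884 for further starvation in wild type and cdk12-as, against 1064, 969 and 922 without it.

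Counts of all genes called moved by more than 1.5 times under total count scaling to 1165 for food in cdk12-as (4396 in the main analysis), 176 for its difference between strains (1064), 378 and 283 for further starvation in wild type and cdk12-as (969 and 922), 1220, 1049 and 1457 for the strains at the start, starved and fed (3865, 2865 and 4580), 827 for the inhibitor in cdk12-as (1924) and 242 for its difference between strains (1099). The compared groups alone gave 197 genes for further starvation in cdk12-as and 1106 for the inhibitor in cdk12-as, and DESeq2 called 3 for the inhibitor in wild type (0). Leaving out single libraries gave 5864 to 6098 genes for food in wild type, 3124 to 3235 for food in cdk12-as, 477 to 671 for the food difference, 246 to 555 and 116 to 999 for further starvation in wild type and cdk12-as, 1830 to 3039, 1368 to 1762 and 2720 to 3217 for the strains at the start, starved and fed, 1289 to 1485 for the inhibitor in cdk12-as and 769 to 1101 for its difference. The lowest counts for further starvation came without wild-type start replicate 1 and cdk12-as start replicate 1.

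Uncalled values near 0 changed sign as follows. With food in wild type aly-1 was -0.01 with DESeq2 size factors, -0.36 and -0.24 with total counts with and without rrn-2.1 and -0.01 in the compared groups alone, and hel-1 was -0.21 and -0.1 with the same total counts. Under total count scaling aly-2 and aly-3 were 0.12 and 0.11 in the food difference, aly-3 and nxf-2 were -0.01 and -0.02 with inhibitor in wild type, hel-1 was -0.01 with starvation in wild type, aly-3 was -0.08 with starvation in cdk12-as, -0.07 and 0.04 between starved and fed strains and -0.09 with inhibitor in cdk12-as, and nxf-2 was -0.14 between starved strains. Without rrn-2.1, hel-1 was -0.01 with starvation in wild type, and aly-3 was -0.03 with starvation in cdk12-as and 0.09 between fed strains. Between starved strains nxf-2 was -0.01 with DESeq2 size factors and -0.02 with DESeq2. Leaving out single libraries gave -0.04 to 0.06 for aly-1 with food in wild type, -0.11 to 0.02 for nxf-1 and -0.16 to 0.26 for nxf-2 with inhibitor in wild type, -0.11 to 0.01 for aly-2 with starvation in wild type, -0.21 to 0.07 for nxf-1 and -0.37 to 0.05 for nxf-2 with starvation in cdk12-as, and -0.23 to 0.19 and -0.14 to 0.23 for nxf-2 between strains at the start and starved.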
